A study of Mus musculus with 10 samples.

Results

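The miR-379 to miR-410 cluster is a run of miRNA genes in the imprinted Dlk1-Dio3 region of mouse chromosome 12. Its members were taken by position. They were all listed mature miRNAs on the plus strand of chromosome 12 that start between 109.7 and 109.76 Mb in the GRCm38 build, both arms of each hairpin included. This gave 70 of the 1061 listed miRNAs, from 36 hairpins, 34 of them with both arms listed. miR-3072, which lies beyond miR-410, falls within the same limits and is counted among them. Small RNA was sequenced from both retinas of 5 wild-type C57BL/6J mice (61, 64, 65, 66 and 68), an inbred laboratory strain, at postnatal day 34. Each animal had been anaesthetised with ketamine and xylazine on postnatal day 24, had worn a goggle with a -20 D lens over 1 eye for 10 days, and had no lens on the other eye. A minus lens of this kind is used to induce myopia. The 5 left and 5 right libraries are labelled by eye and mouse number. The labels do not say which eye wore the lens, and right retina was therefore compared with left retina, with neither called treated. The sources used here give no litter, sex or library batch.

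A miRNA is cut from a folded precursor, the hairpin, whose 5p and 3p arms can each give a mature strand, and bases 2 to 8 of the mature strand, the seed, carry most of the pairing with target mRNAs. The genes of this cluster are expressed from the maternal copy of the chromosome and are processed from long non-coding transcripts, of which Mirg is the annotated host of the distal hairpins. In brain and cultured neurons the cluster is known to be induced by neuronal activity, and several of its miRNAs act on dendrites and synapses. miR-134 limits the size of dendritic spines, miR-329 takes part in activity-dependent growth of dendrites, and miR-485 acts on presynaptic terminals.

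The sequences on which the results turn are given here 5′ to 3′, from RefSeq for GRCm38.p6, with the seed in capitals. A RefSeq mature sequence was found for 66 of the 70 members. The 7 first lines are those of the highest mean level among members with a sequence:
miR-541-5p: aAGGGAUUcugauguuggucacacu
miR-410-3p: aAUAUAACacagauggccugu
miR-411-5p: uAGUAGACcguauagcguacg
miR-381-3p: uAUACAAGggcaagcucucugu
miR-300-3p: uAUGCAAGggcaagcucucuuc
miR-369-5p: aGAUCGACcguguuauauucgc
miR-409-3p: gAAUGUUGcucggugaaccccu
The next are members whose values in left and right retina, or in the 5 mice, are described below:
miR-376a-5p: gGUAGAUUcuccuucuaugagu
miR-667-3p: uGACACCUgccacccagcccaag
miR-377-5p: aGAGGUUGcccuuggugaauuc
miR-329-5p: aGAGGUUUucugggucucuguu
miR-543-3p: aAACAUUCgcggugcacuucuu
The last share their seed with another member and differ from it at few bases:
miR-379-3p: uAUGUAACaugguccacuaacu
miR-411-3p: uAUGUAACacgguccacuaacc
miR-376c-5p: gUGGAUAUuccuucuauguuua
miR-376b-5p: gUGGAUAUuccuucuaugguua

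Positions are counted from 1 at the 5′ end, with the base of the member named first written first. miR-379-3p and miR-411-3p differed by U10C and U22C. miR-376c-5p and miR-376b-5p differed by U19G alone. Of the neighbours with unlike seeds, miR-300-3p and miR-381-3p differed at 3 positions (G4A, U21G and C22U), and miR-376b-3p and miR-376a-3p also at 3 (A4G, C13A and U20G). The members' mature sequences ran from 19 to 25 bases with a median of 22. The median GC content of the tested members was 45.5%, against 47.8% for all tested miRNAs with a sequence.

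The cluster spanned 38885 bases, from miR-379-5p at 109709065 to miR-3072-3p at 109747949. The hairpins followed each other at a median distance of 694 bases, with a range from 127 to 4446. The lincRNA gene Mirg (109729764 to 109749460) held 13 hairpins, with 17 members in its introns and 9 in its exons. The other 23 hairpins, with 44 members, lay outside other annotated genes. Along the order of the 36 hairpins the summed level of the arms had Spearman's rho of 0.28, given as a description of hairpins that share their libraries.

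Retina held a wide range of levels within this 1 locus. The values were normalised read counts, written here as normalised reads, on a scale in which every library sums to about the same total and a value follows the rank that a miRNA holds there. Ligation of adapters favours some sequences, so levels of different members are not on 1 molar scale. Of the 70 members, 8 had a mean of at least 1000 normalised reads, 15 were between 100 and 1000, 19 between 10 and 100, 17 between 1 and 10, and 11 under 1. The 42 with a mean of at least 10 were tested, and each was above 0 in all 10 libraries. Of the 28 below that level, 13 were above 0 in every library.

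**Figure D1:**
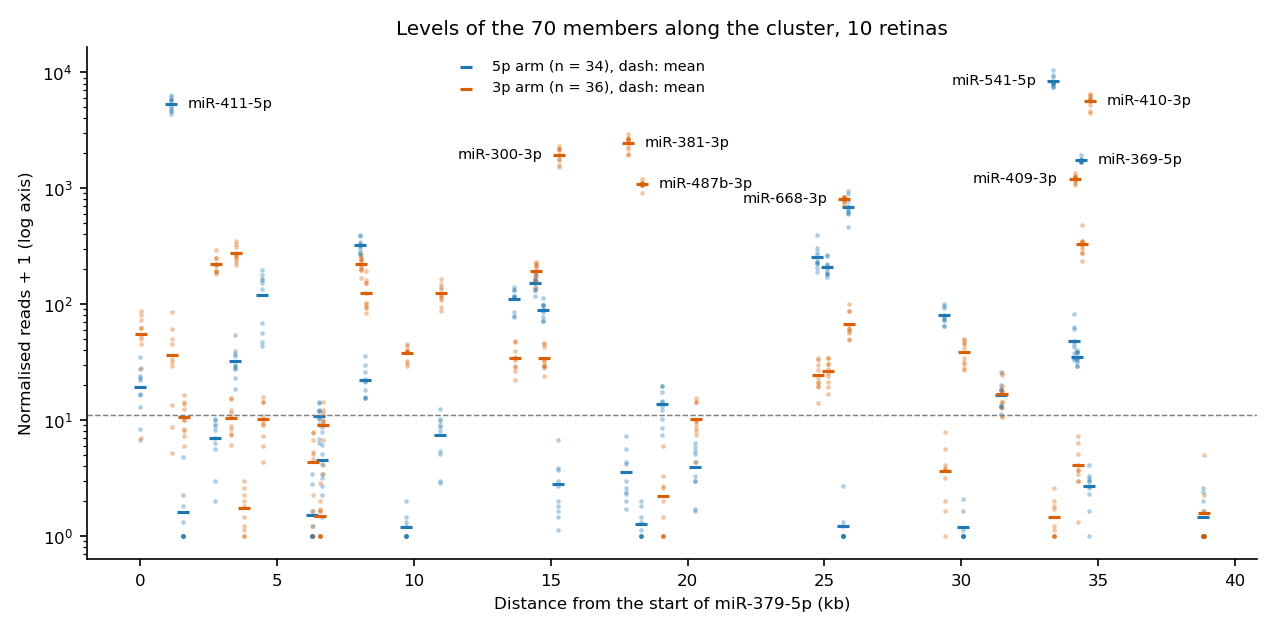
Normalised reads plus 1, on a log axis, of all 70 members against the distance in kb from the start of miR-379-5p. Points are the 10 libraries, dashes the means, blue the 5p arm and orange the 3p arm, and the dashed line marks the mean of 10 required for a test. miR-541-5p and miR-410-3p stand near the distal end and miR-411-5p near the proximal end, with low members between them.

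miR-541-5p (109742422 to 109742446, in an intron of Mirg) was the highest member. It was at 7533, 8035, 10406, 8035 and 8035 normalised reads in the left retinas of mice 61, 64, 65, 66 and 68. In the right retinas of the same mice it was at 9435, 8035, 7533, 7796 and 9068. Left and right overlapped, and the mean was 8391 ± 939 (SD, n = 10 libraries), between rank 40 and rank 49 of the 1061 miRNAs. miR-410-3p (109743764 to 109743784, in an exon of Mirg) had a mean of 5640 ± 668 and a range from 4496 to 6491, so that miR-541-5p was above it in every library. miR-411-5p (109710190 to 109710210), more than 30 kb upstream and outside Mirg, was at 5335 ± 702, and its range from 4352 to 6309 overlapped that of miR-410-3p. These 3 members made up 59.2% of the summed value of the cluster.

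The next 5 members were also above 1000 normalised reads. miR-381-3p had a mean of 2456 ± 336, miR-300-3p of 1934 ± 263 and miR-369-5p of 1742 ± 79.0 (SD, n = 10 libraries). miR-409-3p followed with 1208 ± 83.7 and miR-487b-3p with 1077 ± 68.9. The spread between libraries was thus unequal among members of like level, and the standard deviation of miR-369-5p was under that of miR-300-3p, which had a like mean. Below them came miR-668-3p with 800 ± 38.8, miR-485-5p with 692 ± 142, miR-369-3p with 325 ± 64.9 and miR-666-5p with 320 ± 43.8. These 12 members made up 91.5% of the summed value of the cluster.

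Levels of the 6 members best known from work on neurons ran from 3.34 to 5640 normalised reads, with miR-410-3p, described above, as the highest. miR-134-5p, the regulator of spine size, had a mean of 207 ± 32.0 and a range from 171 to 263 normalised reads. miR-485-5p ranged from 463 to 941. miR-379-5p, the first member of the cluster, had a mean of 18.2 ± 8.74, miR-494-3p of 3.34 ± 2.67 and miR-329-3p of 9.09 ± 3.78. Of these 6 members, miR-494-3p and miR-329-3p were thus under the mean of 10 required for a test. The last member by position, miR-3072-3p, had a mean of 0.584 and was above 0 in 3 of 10 libraries.

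The members just above that limit were miR-539-5p with a mean of 12.7, miR-377-5p with 15.4 and miR-377-3p with 15.7. Just below it were miR-679-5p with 9.71, miR-299a-3p with 9.68 and miR-1197-3p with 9.31. The tested and untested members therefore adjoined each other in level, and miR-679-5p was at 5.30 to 13.2 in single libraries.

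The cluster as a whole summed to 32714 ± 1464 normalised reads, with a range from 30209 to 34939 over the 10 libraries. That was 0.189% of the normalised total, or 1.41% when the 5 most abundant miRNAs of the table were left out of it. The 27 other listed miRNAs of the Dlk1-Dio3 region, upstream of the cluster, summed to 181327 ± 8365, a share of 1.05%. Most of that sum was miR-127-3p. Without it the other upstream miRNAs summed to 40157 ± 3313, and their lowest library, at 35915, was still above the highest of the cluster. In whole retina, fewer cells of a type and less RNA per cell cannot be told apart.

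Some members share a seed with each other or with miRNAs elsewhere in the genome. Among members, miR-379-5p (18.2 ± 8.74) shares GGUAGAC with miR-1193-5p (3.49 ± 2.42), and miR-410-5p (1.67 ± 0.872) shares GGUUGUC with miR-494-5p (0.506 ± 0.874). Outside the cluster, miR-410-3p shares AUAUAAC with miR-344d-3p on chromosome 7, which was at 270 ± 36.0, and with miR-344e-3p at 0.465 ± 0.913. The member was the higher by far for that seed. The reverse held for miR-329-3p, which shares ACACACC with miR-362-3p on chromosome X, at 140 ± 32.9, and for miR-377-5p (15.4 ± 4.49), which shares GAGGUUG with miR-672-5p on chromosome X, at 236 ± 65.9. miR-412-3p (3.08 ± 1.74) was likewise below its seed relative miR-1983 (170 ± 19.2).

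Which arm was the higher differed from hairpin to hairpin. Of the 28 hairpins with at least 1 arm at a mean of 10, the 5p arm was the higher in 13 and the 3p arm in 15, a share of 53.6% for 3p against 46.8% among all 237 such hairpins of the table. In 25 of the 28 the order was the same in all 10 libraries (217 of 237 in the table). The arms were at least 10-fold apart in 18 (64.3%, against 68.8% of the table). A mature strand that starts with U was the higher arm in 11 of 26 hairpins with a sequence, 42.3% against 49.5% in the table.

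The widest ratio was that of miR-541, whose 5p arm was at 8391 and whose 3p arm was at 0.445. miR-410 went the other way, with 1.67 for the 5p arm and 5640 for the 3p arm. Among the 14 hairpins with both arms at a mean of at least 10, 5p exceeded 3p by 151-fold in miR-411, 10.96-fold in miR-382, 10.4-fold in miR-485 and 8.20-fold in miR-134. At the other end 3p exceeded 5p by 25.7-fold in miR-409, 8.77-fold in miR-323, 5.86-fold in miR-543 and 2.95-fold in miR-379. The order of the arms changed between libraries in 3 of the 14. In miR-377 the 5p arm was the higher in 6 of 10 libraries (means 15.4 and 15.7), and in miR-376b (151 and 191) and in miR-379 (18.2 and 53.9) in 2 of 10.

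**Figure D2:**
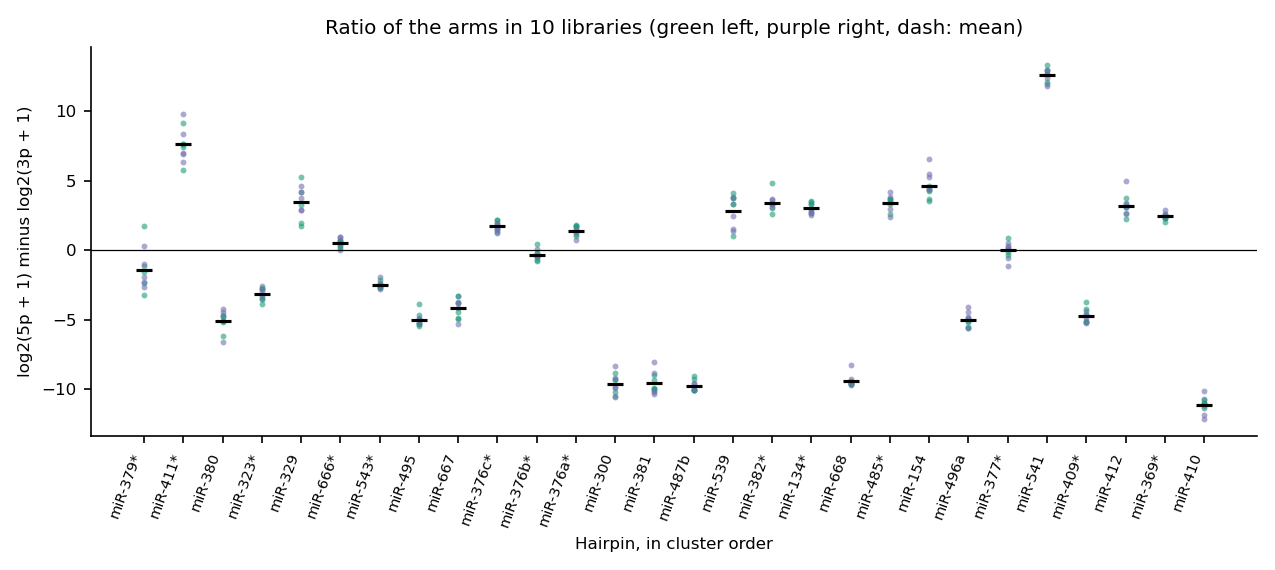
log2(5p + 1) minus log2(3p + 1) for the 28 hairpins with at least 1 arm at a mean of 10, in cluster order; an asterisk marks the 14 with both arms at that level. Points are the libraries (green left, purple right) and dashes the means; miR-541 lies highest at 12.58, miR-410 lowest at -11.13, and miR-377, miR-376b and miR-379 lie on both sides of 0.

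The study set the lens-wearing eye against the other eye of the same mouse. The labels give only the side, so that contrast could not be made, and right was set against left. Where the lens side differs between mice, a lens effect would cancel in part in right minus left and widen the spread between eyes. That spread also enters the test between mice. The values between sides thus set no bound on an effect of the lens. The share of the normalised total that the cluster took was 0.192 ± 0.00590% in the left retinas and 0.185 ± 0.00978% in the right ones (SD, n = 5 each). Right minus left was -0.00699 ± 0.0108 percentage points, with right higher in 2 of 5 mice, a difference within the spread between mice. Per member, 0 of 42 passed the test between sides (limma with mouse as a block, adjusted over all 484 tested miRNAs, threshold 0.05), with 0% called over the 484. At an unadjusted p under 0.05 there was 1 of 42 members, against 2.48% of all tested miRNAs. The smallest adjusted p of a member was 0.958. The log2 difference was below 0 in 26 of 42 members, 61.9% against 53.3% of all tested miRNAs, and above 0 in 16, 38.1% against 46.7%. Its median was -0.06, against -0.01. Within single mice the median was -0.16 in mouse 61, 0 in 64, -0.07 in 65, -0.04 in 66 and 0 in 68.

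The 95% interval of the difference lay within 2-fold in both directions for 40 of 42 members (90.3% of all tested miRNAs), and the median distance from the fitted value to either bound was 0.35 (log2). The 2 others were miR-379-3p and miR-411-3p, whose intervals ran from -0.80 to 1.05 and from -1.04 to 0.55. Among the most abundant members the interval of miR-541-5p was -0.27 to 0.27, that of miR-410-3p -0.32 to 0.06 and that of miR-411-5p -0.29 to 0.11. Each interval holds the differences that remained compatible with the values of the 5 mice. Its bounds are not the smallest difference that the test can find. In simulated data of the same size, the test found 54.2% of the miRNAs set to differ by 1.5-fold and 80.0% of the miRNAs set to differ by 2-fold. With adjustment over all tested miRNAs, such shares depend on how many are set to differ at once and on the spread that is set. They are therefore not the chance of finding a single changed member in these data.

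**Figure D3:**
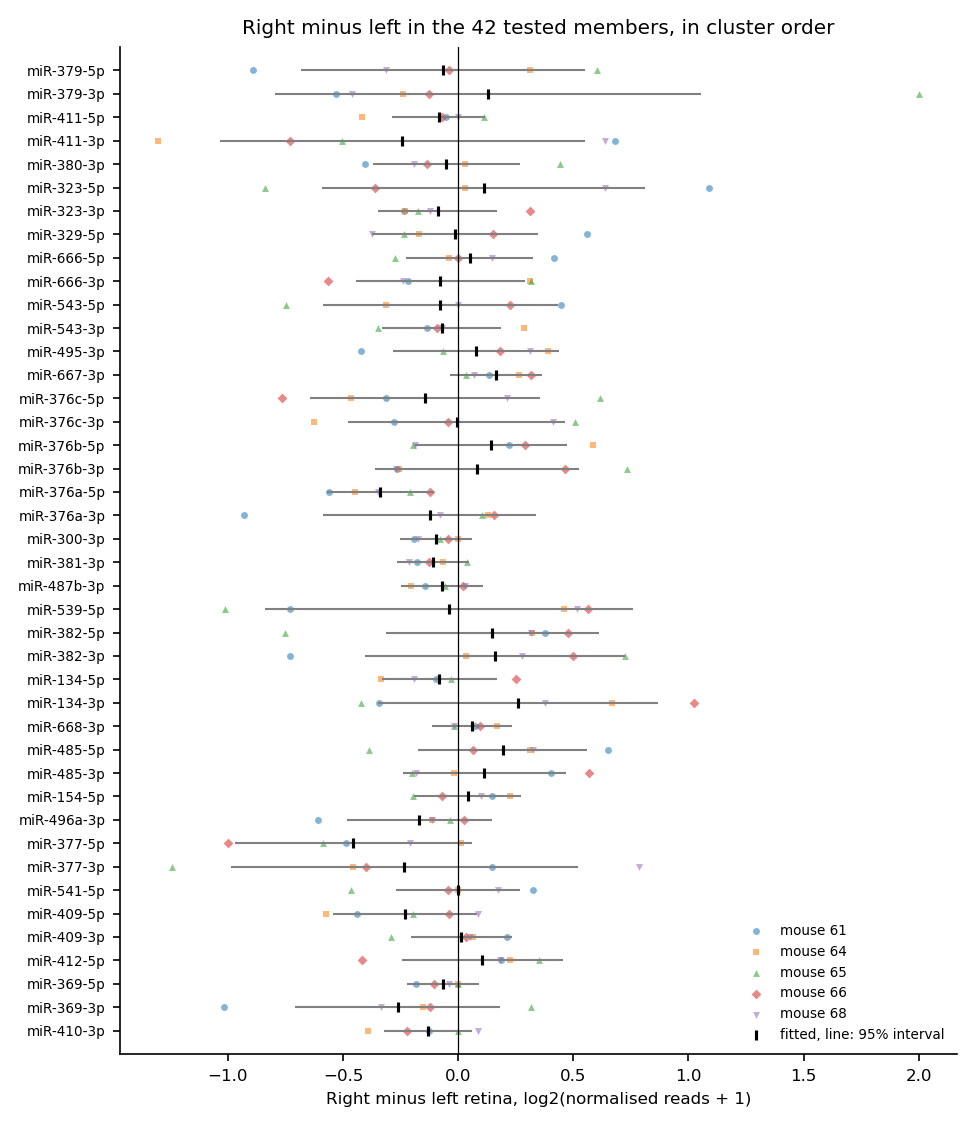
Difference right minus left in log2(normalised reads + 1) for the 42 tested members in cluster order, with 1 symbol for each mouse, the fitted value as a black mark and its 95% interval as a line. The intervals of 41 members include 0, and that of miR-376a-5p lies from -0.57 to -0.11.

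Of the members with the smallest unadjusted p, miR-376a-5p (109723786 to 109723807, outside other annotated genes) was the 1 whose sides did not overlap. It was at 113, 96.2, 96.8, 96.2 and 89.8 normalised reads in the left retinas of mice 61, 64, 65, 66 and 68. In the right retinas it was at 76.1, 70.2, 83.7, 88.4 and 70.2, lower in all 5 mice, a direction that 1.86% of all tested miRNAs had in 5 of 5 mice. The log2 difference was -0.34 (SE 0.10, limma adjusted p = 0.958), so it did not pass the test. Sides that did not overlap, with right lower, were found in 0.413% of all tested miRNAs. The 3p arm of the same hairpin had no common direction: miR-376a-3p was lower in right retina in 2 mice and higher in 3 (log2 difference -0.12, SE 0.19).

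miR-667-3p (109720061 to 109720083) was the other member with 1 direction in all 5 mice, and the 1 of 42 that was higher in every right retina (1.86% of all tested miRNAs). Together 2 of 42 members, or 4.76%, had 1 direction in 5 of 5 mice, against 3.72% of all tested miRNAs. It was at 149, 93.5, 117, 86.2 and 133.9 in the left retinas, in the same order of mice. It was at 164, 113, 120, 108 and 141 in the right retinas. The sides overlapped, and the log2 difference was 0.16 (SE 0.08, adjusted p = 0.958).

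The lowest difference was that of miR-377-5p, with -0.45 (SE 0.21), lower in right retina in 4 of 5 mice, and its values were close to the limit for testing (10.2 to 24.8). The highest was that of miR-134-3p, with 0.26 (SE 0.25) and right higher in 3 of 5 mice. Neither passed. miR-485-5p was higher in right retina in 4 of 5 mice, with 599, 619, 606, 648 and 707 in the left and 941, 770, 463, 678 and 886 in the right retinas. Its left values lay close together and its right values on both sides of them, with a log2 difference of 0.19 (SE 0.15). That of miR-485-3p was 0.11 (SE 0.15), of miR-376b-5p 0.14 (SE 0.14), of miR-668-3p 0.06 (SE 0.07), of miR-409-5p -0.23 (SE 0.13), of miR-410-3p -0.13 (SE 0.08), of miR-381-3p -0.11 (SE 0.07) and of miR-300-3p -0.10 (SE 0.07). None of these passed. The ratio of the arms passed between sides in 0 of 14 hairpins, with 0% called over all 126 tested hairpins. At an unadjusted p under 0.05 there were 0 of 14, against 4.76%.

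The retinas of 1 mouse can also be taken as a pair of measurements of that animal, which asks whether mice differ by more than their eyes do. By limma's F test of the mouse terms 1 of 42 members passed, miR-329-5p, with 1.65% called over the 484 tested miRNAs (8 in all). At an unadjusted p under 0.05 there were 10 of 42, or 23.8%, against 14% of all tested miRNAs. The means of the highest and the lowest mouse were at least 2-fold apart in 5 of 42 members, a share of 11.9% against 12.2%. In the upstream part of the region 0 of 21 tested miRNAs passed and 4 were at an unadjusted p under 0.05. The lowest adjusted p there was 0.0645, for miR-127-5p.

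miR-329-5p (109713503 to 109713524, outside other annotated genes) was at 45.8 and 67.8 normalised reads in the left and right retina of mouse 61. It was at 54.99 and 42.2 in mouse 68. In mouse 64 it was at 151 and 134, in mouse 65 at 194 and 165, and in mouse 66 at 160 and 178. The 4 retinas of mice 61 and 68 were thus all below the 6 retinas of the other mice, and the highest and the lowest mouse were 1.87 apart on the log2 scale (adjusted p = 0.0298). The call was lost without mouse 64 (adjusted p = 0.0752), without mouse 66 (0.0959) and without mouse 68 (0.0921), in fits with fewer mice and less power. With all mice it was also lost without the mean-variance trend of the fit (0.0562). The partner arm, miR-329-3p, was too low to be tested.

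**Figure D4:**
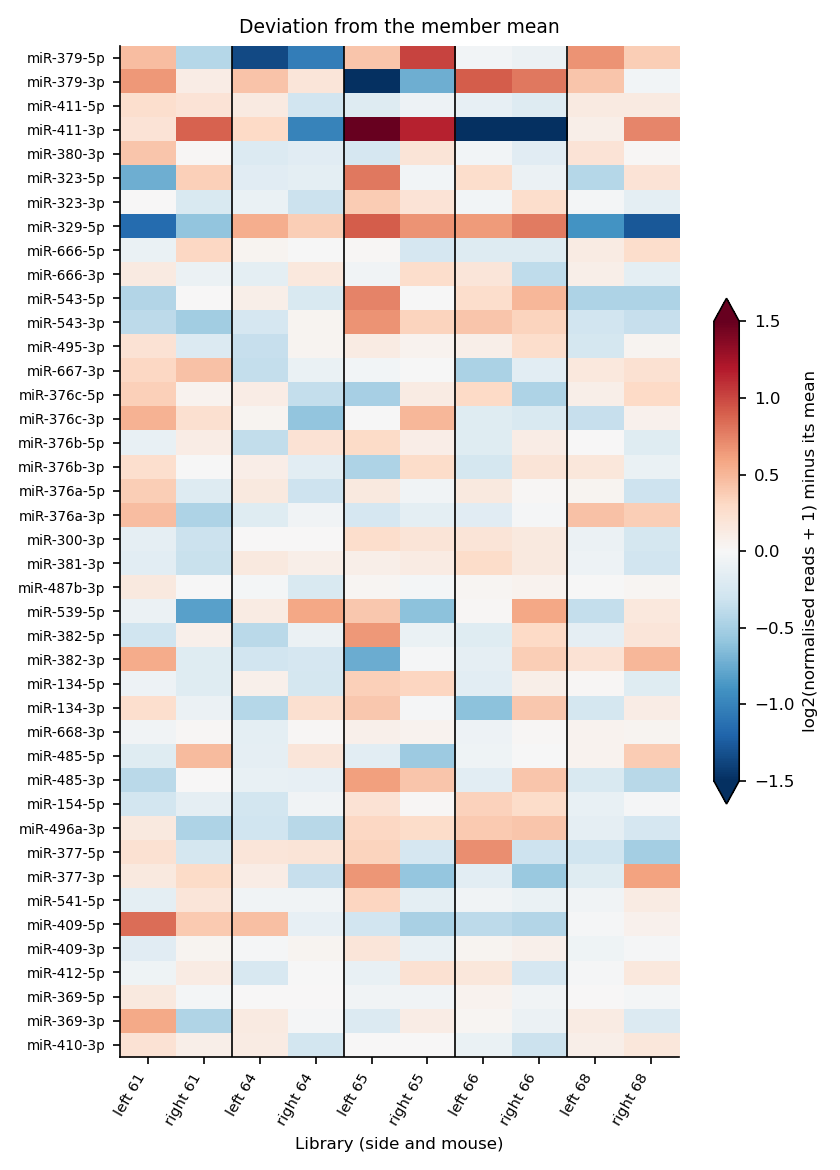
Deviation of each library from the member's own mean, in log2(normalised reads + 1), for the 42 tested members in cluster order, with the left and right retina of a mouse side by side; colours saturate at 1.5. miR-329-5p is low in all 4 retinas of mice 61 and 68, and miR-379-3p and miR-411-3p deviate in opposite directions in mouse 65 and mouse 66.

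The same separation of mice 61 and 68 from the others was seen in 4 further members with an unadjusted p under 0.05, none of which passed. miR-543-3p was between 82.7 and 98.1 in mice 61 and 68 and between 100.4 and 192 in the others (adjusted p = 0.115). miR-381-3p was between 1931 and 2308 in mice 61 and 68 and between 2578 and 2948 in the others (adjusted p = 0.182). miR-300-3p, whose hairpin is the nearest upstream neighbour of miR-381, was between 1535 and 1800 against 1931 to 2308 (adjusted p = 0.182). These 3 members were lower in mice 61 and 68. miR-667-3p was the higher there, between 133.9 and 164 against 86.2 to 120 (adjusted p = 0.173).

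This was not a movement of the whole cluster. Over the 42 tested members, mice 61 and 68 had the 2 lowest means in 8 and the 2 highest in 11. Over all 484 tested miRNAs the numbers were 83 and 76, and in the 8 miRNAs called between mice, 6 and 2. Leaving out both mice, an alternative chosen after seeing the data, gave 0 of 42 members and 0 of 484 miRNAs called, with an adjusted p of 0.717 for miR-329-5p. These mice were the 2 lowest or the 2 highest in all 8 called miRNAs, and the fit without them had fewer mice and less power. The loss of the calls was thus largely set in advance and is not further support for the separation. The labels give the same strain, genotype, age and lens protocol for all 5 animals, and what sets mice 61 and 68 apart was not tested.

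Of the other members at an unadjusted p under 0.05, miR-409-5p was highest in mouse 61, with 81.1 in the left and 59.5 in the right retina, and ranged from 31.9 to 61.9 elsewhere (adjusted p = 0.173). miR-379-5p was lowest in mouse 64, at 5.77 and 7.40, and reached 33.9 in the right retina of mouse 65 (adjusted p = 0.210). miR-496a-3p was between 26.1 and 48.7 (adjusted p = 0.289). The members thus did not share 1 order of mice: mouse 65 was highest in 15 of the 42 tested members, mouse 61 in 11, mouse 66 in 8, mouse 68 in 6 and mouse 64 in 2.

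The members of at least 100 normalised reads with the least sign of a difference between mice were miR-369-3p, miR-376b-3p, miR-666-3p and miR-409-3p. miR-369-3p was at 475, 352, 277, 326 and 350 in the left and 235, 317, 345, 299.99 and 277 in the right retinas of mice 61, 64, 65, 66 and 68. The retinas of mouse 61 thus held both its highest and its lowest value. The means of the 5 mice lay between 311 and 355 for miR-369-3p, between 182 and 207 for miR-376b-3p, between 207 and 237 for miR-666-3p, and between 1158 and 1258 for miR-409-3p.

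miR-379-3p and miR-411-3p, which have 1 seed and differ at 2 bases, varied in opposite directions between libraries. miR-379-3p was at 71.8, 61.5, 6.01, 86.5 and 61.2 in the left and 49.4, 51.9, 27.1, 79.3 and 44.2 in the right retinas of mice 61, 64, 65, 66 and 68. miR-411-3p was at 30.4, 32.4, 84.8, 7.68 and 28.0 in the left and 49.4, 12.5, 59.5, 4.23 and 44.2 in the right retinas. Mouse 65 was thus the lowest for the 1 and the highest for the other, mouse 66 the reverse, and both had the same value in the right libraries of mice 61 and 68. Their sum was at 102, 93.9, 90.8, 94.2 and 89.2 in the left and 98.7, 64.5, 86.6, 83.5 and 88.4 in the right retinas. The coefficient of variation over the 10 libraries was 44.9% for miR-379-3p, 70.9% for miR-411-3p and 11.6% for the sum. Taken as 1 miRNA, the sum had an adjusted p of 0.714 between mice, against 0.278 and 0.115 for the pair taken singly.

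The same was seen, to a lesser degree, for miR-376c-5p and miR-376b-5p, which differ at 1 base. miR-376c-5p ranged from 76.1 to 138 and miR-376b-5p from 116 to 184, and both had the same value in 4 libraries, the left libraries of mice 61, 64 and 66 and the right library of mouse 68. The coefficient of variation was 21.0% and 14.0% for the pair and 5.73% for their sum (232 to 277). Pairs that differ at 3 bases did not show it. miR-300-3p took between 41.7% and 47.2% of its sum with miR-381-3p in every library, and the coefficient of variation was 13.6%, 13.7% and 13.2% for miR-300-3p, miR-381-3p and their sum. For miR-376b-3p and miR-376a-3p it was 16.3%, 23.5% and 15.6%. How reads that fit more than 1 of these near-identical sequences were assigned is not stated in the labels or the table, and its part in these values was not tested.

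**Figure D5:**
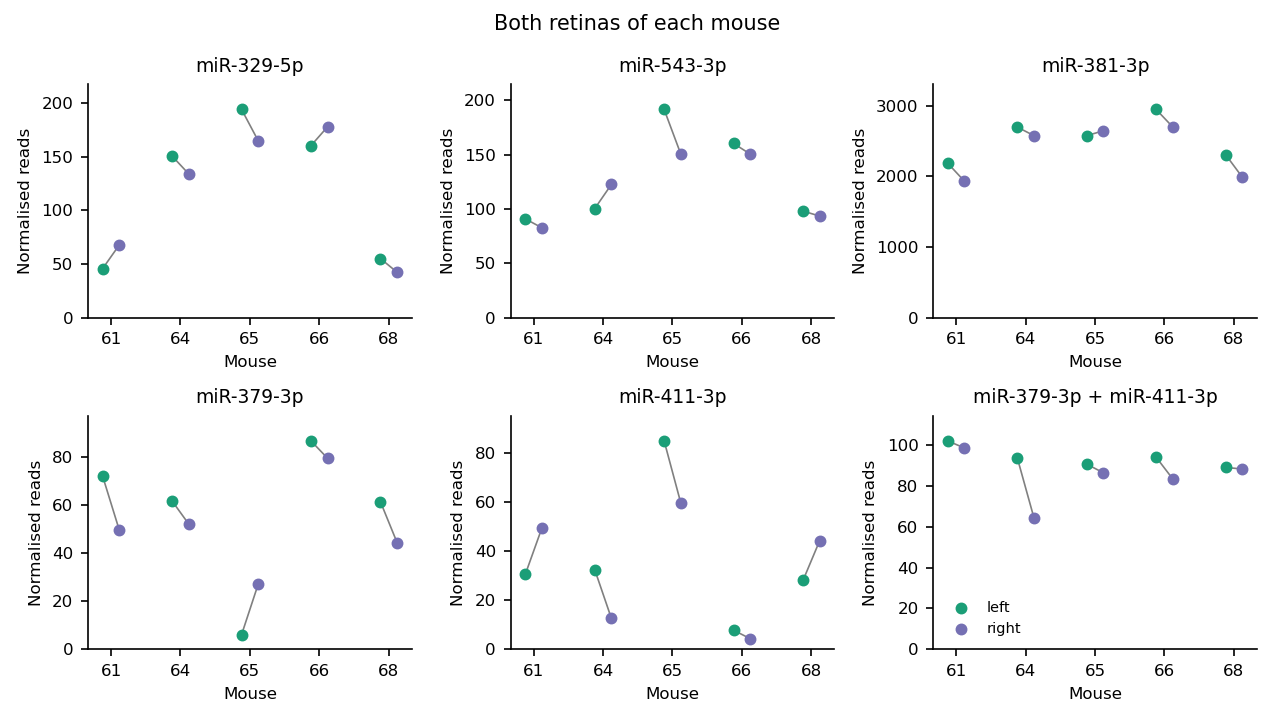
Normalised reads in the left (green) and right (purple) retina of each of the 5 mice, with a line joining the eyes of 1 mouse, for miR-329-5p, miR-543-3p, miR-381-3p, miR-379-3p, miR-411-3p and the sum of the last 2; axes start at 0. miR-329-5p, miR-543-3p and miR-381-3p are lower in mice 61 and 68, and the sum of miR-379-3p and miR-411-3p stays between 64.5 and 102 while each ranges from under 10 to over 80.

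The ratio of the arms differed between mice in 2 of 14 hairpins, with 6.35% called over the 126 tested hairpins. At an unadjusted p under 0.05 there were 4 of 14, against 19.8%. The called hairpins were miR-379 and miR-411, each with an adjusted p of 0.0118 by limma's F test. Their 3p arms are the near-identical pair. With the summed value in place of each 3p arm the adjusted p was 0.246 for miR-379 and 0.680 for miR-411, and 0 of 14 hairpins passed. Both calls were also lost without mouse 64, 65, 66 or 68, each left out alone, in fits with fewer mice and less power. Both stayed without mouse 61, and also without mice 61 and 68 together, where the lower of their adjusted p was 0.000243. miR-485 and miR-409 were the 2 others at an unadjusted p under 0.05, with adjusted p of 0.0933 and 0.132.

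Markers of other tissues varied between libraries. The 5 miRNAs listed for lens, cornea and surface epithelium, 3 of them at a mean of at least 10 and 1 with a value of 0 in a library, summed to between 1220 and 2315 in left and between 2122 and 22626 in right retina, highest in the right library of mouse 65. The 4 muscle miRNAs, 2 of them at a mean of at least 10 and 2 with a value of 0, summed to between 295 and 1742 in left and between 279 and 399.6 in right retina, highest in the left library of mouse 68. The 3 erythrocyte miRNAs, none with a value of 0, summed to between 2604 and 3003 in left and between 2555 and 4420 in right retina. The 3 of leukocytes and microglia, 1 of them with a value of 0, summed to 1448 to 2121 and to 1682 to 2194, and the 2 of endothelium to 7870 to 8926 and to 7427 to 9110. All 3 of these lists were highest in the right library of mouse 68. The 2 of oligodendrocytes summed to 1246 to 1536 in left and 1152 to 1434 in right retina. The 2 of retinal pigment epithelium summed to 209809 to 224482.5 in left and 213245 to 220543 in right retina, highest in the left library of mouse 68. The 3 of retinal neurons summed to 3817284 to 3828088 in left and 3811768 to 3841834 in right retina. The photoreceptor miRNAs miR-182-5p, miR-183-5p and miR-96-5p, which define the tissue, summed to between 10550828 and 10579078 in every library. At the top ranks of a table with a fixed total this near-constant sum follows from the normalisation and does not measure the tissue content. The part of these markers in the differences above was not tested.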

How the data were processed

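The authors' deposited table held 1 signal for each of 1061 miRNAs in 10 libraries, named as normalised counts. The submitters' processing notes name the tools Partek and Bowtie with no version, and the build as GRCm38 or mm10. Libraries were made with the TruSeq Small RNA kit, per the labels' protocols. Totals ran from 17312269 to 17312436. In all libraries 342 ranks held 1 value, 180 of them a value above 0. The depth is thus unknown and no counting interval was given. The members and lists were chosen with earlier results of these data known.

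Values were fitted as log2(value + 1), which understates changes of low miRNAs, with limma 3.58.1 in R 4.3.3 on the 484 miRNAs with a mean of at least 10, with mouse as a block, side as a term, a mean-variance trend and Benjamini-Hochberg adjustment over all 484. Between sides the tests were two-sided. Arm ratios were fitted the same way on 126 hairpins with both arms at that mean. The number of a mouse pairs its eyes: over the 42 tested members, which are not independent replicates, the deviations of both eyes correlated by 0.197 to 0.754, against -0.58 to 0.537 for eyes of different mice, with a median of -0.18. The left eye of mouse 61 correlated more with the right eye of mouse 68 (0.537) than with its own partner (0.197). That value was also above the 0.521 between the eyes of mouse 68. The right eye of mouse 64 correlated more with the left eye of mouse 66 (0.490) than with its own partner (0.419). The right eye of mouse 61 correlated more with the left eye of mouse 64 (0.247) than with its own partner. Each of the other eyes correlated most with its own partner. The p-values between sides rest on how the difference right minus left varied over these mice. Those between mice set the spread of the mouse means against the spread between the eyes of 1 mouse.

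Named were the 12 highest members, the 6 with the smallest p in each direction between sides, the 8 with the smallest and, at a mean of at least 100, the 4 with the largest p between mice, those that share a seed, the first and last, 6 known from neurons, the 3 on each side of the limit of 10, and the hairpins with the most unequal or changing arms. Any other member named was chosen after its values were seen. Coordinates are 1-based, with the end 1 base before that of the table, as in RefSeq for 66 of 66 members. Hosts came from the GENCODE annotation. In 20 simulations 0.460% of unchanged miRNAs were called between sides and 0.531% between mice. Of those given a mouse SD of 1 on the log2 scale, 78.5% were called between mice. That setting is wide: the highest and lowest mouse means were a median of 0.48 apart in the members and 0.46 in all tested miRNAs. The 78.5% thus does not give the share found at the spread seen here. The table held 0 columns of other samples.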

Additional observations from a re-analysis of the deposited data

Results flagged for a closer look

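In 5 of 84 groups of 5 libraries (42 tested members, left and right apart) 1 library stood apart from the other 4. About 1 in 20 such groups does so by chance, or 4.2 of 84. In the left library of mouse 65, miR-541-5p was at 10406 normalised reads against 7533 to 8035 in the other left libraries, miR-323-3p at 352 against 254 to 273, and miR-382-5p at 391 against 188 to 226. In the same library miR-379-3p was at 6.01 against 61.2 to 86.5, where its near-identical partner miR-411-3p was highest. In the right library of mouse 64, miR-487b-3p was at 914 against 1054 to 1115. Thus 4 of the 5 values were from 1 library.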

How the results depend on the processing

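Between sides, 0 members and 0 arm ratios were called under each of 14 alternatives, among them the fit with no replicate block (0 members and 0 arm ratios called). The members' median log2 difference stayed between -0.07 and -0.01 under 11. The 12 members named for their p between sides kept their direction in 163 of 164 alternatives with a value. Many of these cannot change it: the filters, no trend, no replicate block and summed pairs leave the fitted difference of these members as it was. The members were also picked by their p in these same data, so the count is not support for a direction. The exception was miR-485-5p, which went from 0.19 to -0.0030 without mice 61 and 68. Between mice, 0 members were called without the mean-variance trend and without mice 61 and 68. With no side term 3 were called (miR-329-5p, miR-411-3p and miR-543-3p). Leaving out 1 mouse at a time gave 0 to 1, with 0 without mouse 64, 66 or 68. Fits without 1 or 2 mice have less power, so a lost call there is not a result about the mice left out. The adjusted p of miR-329-5p ran from 0.00800 to 0.717. Arm ratios between mice gave 0 calls with near-identical pairs summed, and 0 to 2 with 1 mouse left out at a time. With a minimum mean of 50 they also gave 0, but miR-379 and miR-411 each have an arm below it and were not tested there. Without mice 61 and 68 both hairpins were called. The share of the cluster was 1.41% without the 5 most abundant miRNAs. Alternatives included pseudocounts of 0.5 and 10, no filter and median-ratio scaling. Leaving out both mice, summing pairs, every alternative of a single member's p between mice, and the filters and the fit without trend for single members between sides were chosen after seeing the data. The causes of the other changes were not tested. Depth is unknown, so values under about 10 normalised reads have no stated precision.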
